A study of Mus musculus with 27 samples.

Results

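The genes described here are 10 markers of T cells and regulatory T cells: Cd3d, Cd3e, Cd3g, Cd4, Cd8a, Foxp3, Ctla4, Icos, Cd28 and Il2ra. They were taken by symbol from a table of 16024 mouse genes, and all 10 were present. RNA had been sequenced from 27 libraries in 10 groups, all labelled C57BL/6 mice: 5 cell preparations, each from tumour lung and from wild-type (WT) lung. Tumours came from HKP1 cells, a lung cancer cell line, put in through the tail vein, and were sampled on day 20 to 25 of growth. WT lungs carry the label of no tumour, although the treatment text of their libraries is the same as that of the tumour libraries. Perfused lungs were dissociated and either left unsorted, as total lung cells (3 tumour and 3 WT libraries), or sorted on surface markers. Sorted macrophages were CD11c+CD11b+ in tumour lung (n = 3) but CD11c+CD11b- in WT lung (n = 2), so this pair differs in its gate as well as in its lung. Sorted monocytes were CD11b+Ly6C+ (2 tumour and 2 WT libraries), neutrophils CD11b+Ly6G+ (3 and 3) and epithelial cells Epcam+CD11b-CD11c- (3 and 3). None of the gates was set on a T cell marker, so total lung cells are the preparation in which T cells were neither selected nor gated away. Whether libraries of a group came from different animals is not stated in the labels, and p-values therefore reflect only how far these libraries differ, which may be technical.

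T cells recognise antigen through a receptor whose signal is carried by the CD3 chains, and they divide into helper cells with the coreceptor CD4 and cytotoxic cells with the coreceptor CD8. A second signal comes from CD28, which binds CD80 and CD86 on other cells. CTLA4 binds the same ligands and restrains the response, and ICOS is a costimulatory relative of CD28 with its own ligand. Regulatory T cells are CD4 T cells that suppress immune responses. They depend on the transcription factor Foxp3 and typically carry CTLA4, ICOS and Il2ra, the alpha chain of the interleukin 2 receptor, although activated conventional T cells carry the last 3 as well. Regulatory T cells are commonly found within lung tumours.

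The deposited values are FPKM, a fragment count corrected for transcript length and for library size. Between 8560 and 11420 genes reached 1 FPKM in a library. The spacing of the lowest values put library depth, relative to tumour macrophage replicate 1, at 0.624 to 1.58, a rough figure, since for tumour total lung replicate 13 the best spacing was tied with another at 29 genes. Epcam, the sort marker of the epithelial gate, read 84.1 to 96.0 FPKM in tumour epithelial libraries and 77.4 to 94.3 FPKM in WT ones. Csf1r, a receptor of macrophages and monocytes, read 247 to 332 FPKM in tumour macrophages and 60.9 to 68.8 FPKM in WT macrophages. In total lung cells, the cells around the T cells differed between tumour and WT lung. The summed FPKM of 12 B cell markers was 238 to 659 in tumour libraries and 1093 to 1889 in WT libraries, and that of 6 natural killer (NK) cell markers was 217 to 306 and 655 to 774. That of 8 macrophage and monocyte markers was 701 to 1369 in tumour libraries and 149 to 188 in WT libraries. Ptprc, the antigen common to leukocytes, read 170 to 246 FPKM in tumour libraries and 258 to 285 FPKM in WT libraries and did not pass the test. The part of these shifts in the results below was not tested.

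All 3 CD3 chains and both coreceptors were at similar levels in tumour and WT total lung cells, while Foxp3, Ctla4 and Il2ra were higher in tumour. The test was limma on log2(FPKM + 1) with Benjamini-Hochberg adjustment over the 11747 genes tested, and a gene passed at an adjusted p under 0.05. All 10 genes were at least 1 FPKM in every total lung library and were tested. Of these, 3 passed as higher and 0 as lower, which compares with 22.1% of all genes tested called higher and 20.4% called lower (42.5% either way). Taken both ways together, the calls therefore lay below the background of a comparison in which many genes moved, while the higher calls alone did not. The median log2 change of the 10 genes was 0.21, against -0.01 over all genes tested. In unsorted cells, fewer cells of a type and less RNA per cell cannot be told apart.

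**Figure D1:**
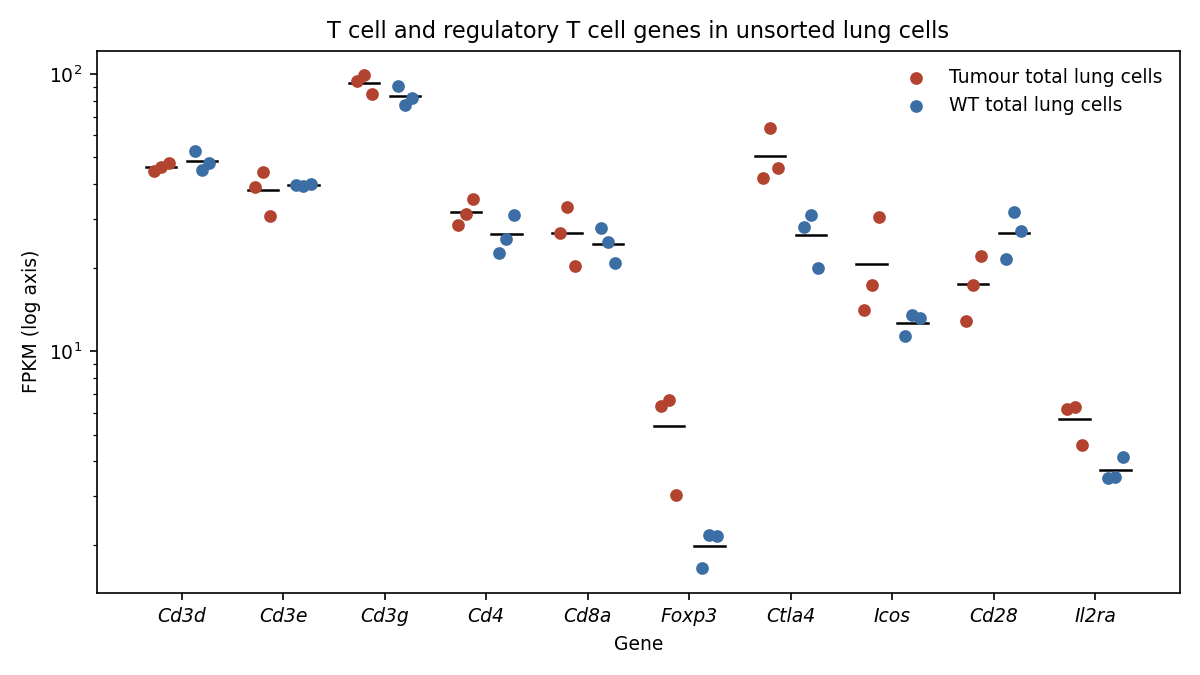
FPKM of the 10 genes in unsorted total lung cells, on a log axis. Each point is a library (3 tumour libraries in red, left, and 3 WT libraries in blue, right) and each black line a group mean. The tumour points lie above all WT points for Foxp3, Ctla4, Icos and Il2ra, and the groups interleave for the CD3 chains, Cd4 and Cd8a.

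The CD3 chains lie in a cluster on chromosome 9 (GRCm38, GENCODE M21). Cd3g, at 44969572 to 44980431 on the minus strand, is separated by 1354 bases from Cd3d, at 44981786 to 44987339 on the plus strand, and a further 11400 bases separate Cd3d from Cd3e, at 44998740 to 45009627 on the minus strand. Cd3e was at 39.0, 44.2 and 30.8 FPKM in tumour replicates 12, 13 and 14, and at 39.6, 39.3 and 40.0 FPKM in WT replicates 11, 12 and 13. The WT libraries fell within the range of the tumour libraries, of which replicate 14 was the lowest. Its fitted log2 change was -0.07 (SE 0.14, adjusted p = 0.689), and without tumour replicate 14 it was 0.07. Cd3d was at 44.8, 46.3 and 47.8 FPKM in tumour and at 52.6, 45.1 and 47.8 FPKM in WT libraries. Cd3g, the most abundant of the chains, was at 94.2, 98.8 and 84.6 FPKM in tumour and at 90.2, 77.5 and 82.0 FPKM in WT libraries. The groups overlapped for each chain, and neither Cd3d (adjusted p = 0.624) nor Cd3g (adjusted p = 0.288) passed.

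The coreceptors did not separate the groups either. Cd4 (chromosome 6, 124864692 to 124888221) was at 28.5, 31.2 and 35.3 FPKM in tumour and at 22.6, 25.4 and 31.1 FPKM in WT libraries (adjusted p = 0.168). Cd8a (chromosome 6, 71373427 to 71379173) was at 26.7, 33.0 and 20.3 FPKM in tumour and at 27.8, 24.7 and 20.7 FPKM in WT libraries (adjusted p = 0.673). The highest WT library lay above the lowest tumour library for both. The ratio of Cd8a to Cd4 FPKM was 0.937, 1.06 and 0.576 in tumour and 1.23, 0.973 and 0.666 in WT libraries, which again overlapped. Cd4 also averaged 37.2 FPKM in sorted tumour macrophages and 1.51 FPKM in WT ones. The part of macrophages in the Cd4 values of total lung cells was not tested.

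Foxp3, the transcription factor that defines regulatory T cells, was the least abundant of the 10 genes in WT total lung cells and differed most in fitted change. It lies on chromosome X at 7573644 to 7595245, on the plus strand. Foxp3 was at 6.35, 6.68 and 3.03 FPKM in tumour replicates 12, 13 and 14, and at 1.65, 2.18 and 2.15 FPKM in WT replicates 11, 12 and 13. All 3 tumour libraries lay above all WT libraries, with tumour replicate 14 close to the WT range and the other 2 well above it. The log2 change was 1.03 (SE 0.25, adjusted p = 0.0137), on a scale with 1 FPKM added that understates changes of low genes. Without WT replicate 11 it was 0.95 and no longer passed (adjusted p = 0.0513). Exons of Foxp3 overlap those of Ccdc22 and Ppp1r3f on the other strand, and the library kit does not mark strand. Ccdc22, which also read higher in tumour total lung cells (15.9 to 18.7 FPKM) than in WT (8.81 to 10.5 FPKM), was at 16.3 to 25.8 FPKM in tumour macrophages, where Foxp3 was at 0.0981 to 0.372 FPKM.

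In tumour total lung cells Ctla4 had a higher mean FPKM than its relatives Icos and Cd28, while in WT total lung cells Ctla4 and Cd28 were at similar means. Ctla4 shares a stretch of chromosome 1 with its relatives: 113640 bases lie between Cd28 (60716800 to 60773359) and Ctla4 (60887000 to 60915832), and 62094 bases between Ctla4 and Icos (60977927 to 61000320), all on the plus strand. Ctla4 was at 42.2, 64.0 and 45.7 FPKM in tumour and at 28.1, 31.0 and 19.9 FPKM in WT libraries. The groups did not overlap, and the log2 change was 0.92 (SE 0.21, adjusted p = 0.0101). Icos was at 14.02, 17.4 and 30.4 FPKM in tumour and at 11.3, 13.5 and 13.2 FPKM in WT libraries. Tumour replicate 14 was far above the rest and replicate 12 just above the highest WT library. The log2 change of Icos was 0.59 and did not pass (SE 0.25, adjusted p = 0.0945), although it did without tumour replicate 12 (0.82, adjusted p = 0.0341).

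Cd28 was at 12.8, 17.4 and 22.1 FPKM in tumour and at 21.6, 31.7 and 27.02 FPKM in WT libraries. Tumour replicate 14 lay above WT replicate 11, and the other tumour libraries lay below all WT libraries. The log2 change of -0.61 (SE 0.21) had an adjusted p of 0.0505. It passed without tumour replicate 14 (-0.79, adjusted p = 0.0260) and without WT replicate 11 (-0.75, adjusted p = 0.0456). The neighbouring genes thus took different values relative to each other in the 2 kinds of lung. Ctla4 FPKM was 3.30, 3.69 and 2.07 times that of Cd28 in tumour libraries, against 1.31, 0.976 and 0.735 times in WT libraries. Icos FPKM was 1.10, 0.9997 and 1.38 times that of Cd28 in tumour libraries, against 0.526, 0.425 and 0.487 times in WT libraries. Neither ratio overlapped between the groups. How many of all genes do not overlap relative to Cd28 was not counted. Relative to Cd3e, 44.1% of genes with a value in every library did not.

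Il2ra (chromosome 2, 11642807 to 11693193, plus strand) was at 6.20, 6.28 and 4.60 FPKM in tumour and at 3.49, 3.51 and 4.16 FPKM in WT libraries. All tumour libraries lay above all WT libraries, but tumour replicate 14 and WT replicate 13 were close. The log2 change was 0.50 (SE 0.14, adjusted p = 0.0264). The call was lost without tumour replicate 12 or 13 (adjusted p = 0.0805 and 0.0718) and without WT replicate 11 or 12 (0.0899 and 0.0787). It was also lost when all 10 groups were fitted together (adjusted p = 0.0928). The summed FPKM of 8 markers of group 2 innate lymphoid cells (ILC2), which can carry Il2ra and Icos, was 105 to 140 in tumour and 53.3 to 68.3 in WT total lung libraries. Among them Arg1, which macrophages also express, was at 83.7 ± 11.5 FPKM in tumour and 7.33 ± 3.33 FPKM in WT libraries (SD, n = 3 each). Of the 7 ILC2 markers tested, 1 rose and 2 fell, with a median log2 change of -0.41, and their part in the Il2ra and Icos values was not tested. Il2ra averaged 3.95 ± 2.21 FPKM in tumour and 0.349 ± 0.0875 FPKM in WT macrophages (SD, n = 3 and 2). In total lung cells 7 of 8 macrophage and monocyte markers rose, and the part of macrophages in the Il2ra values was not tested.

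The start regions of the 3 genes that passed are given here so that their letters can be set beside the levels. They are RefSeq sequences on GRCm38.p6, each running from 250 bases before to 50 bases after an annotated start, 5′ to 3′ on the plus strand. RefSeq windows were matched for 7 of the 10 genes. Foxp3 has 2 annotated starts, at chrX:7579426-7579725 (start A) and chrX:7580233-7580532 (start B). The Ctla4 window is chr1:60908775-60909074 and that of Il2ra chr2:11642542-11642841. Capitals mark matches to the motifs searched.
Foxp3 start A: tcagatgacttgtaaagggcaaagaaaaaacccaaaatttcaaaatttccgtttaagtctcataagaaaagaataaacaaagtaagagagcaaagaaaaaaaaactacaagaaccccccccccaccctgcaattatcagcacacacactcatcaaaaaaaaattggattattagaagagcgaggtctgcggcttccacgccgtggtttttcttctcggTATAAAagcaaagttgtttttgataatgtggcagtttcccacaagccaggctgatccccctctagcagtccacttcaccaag
Foxp3 start B: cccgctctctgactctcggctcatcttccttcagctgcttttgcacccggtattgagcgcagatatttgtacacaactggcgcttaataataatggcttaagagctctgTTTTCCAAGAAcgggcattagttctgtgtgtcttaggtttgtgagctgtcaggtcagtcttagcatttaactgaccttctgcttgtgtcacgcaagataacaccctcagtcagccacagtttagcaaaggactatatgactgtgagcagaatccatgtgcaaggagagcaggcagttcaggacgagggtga
Ctla4: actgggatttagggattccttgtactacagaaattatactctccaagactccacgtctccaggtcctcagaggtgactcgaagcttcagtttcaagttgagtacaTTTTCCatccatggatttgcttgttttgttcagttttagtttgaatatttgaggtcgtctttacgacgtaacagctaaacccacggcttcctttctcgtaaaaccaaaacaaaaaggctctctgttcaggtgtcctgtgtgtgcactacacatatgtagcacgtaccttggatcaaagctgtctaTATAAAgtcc
Il2ra: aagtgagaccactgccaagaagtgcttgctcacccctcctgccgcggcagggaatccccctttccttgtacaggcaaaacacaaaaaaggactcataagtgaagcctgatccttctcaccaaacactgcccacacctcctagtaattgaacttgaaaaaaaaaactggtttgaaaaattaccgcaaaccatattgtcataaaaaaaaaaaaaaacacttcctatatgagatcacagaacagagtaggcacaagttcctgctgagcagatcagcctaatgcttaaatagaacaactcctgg
The motifs were searched on both strands: GTAAACA for forkhead factors, GGAAAA for NFAT, TTCNNNGAA for STAT factors, TGTGGT for RUNX factors, TGANTCA for AP-1 and TATAAA for the TATA box. Over 32851 RefSeq promoter windows of the same length they were found in 3.65%, 23.4%, 8.30%, 16.8%, 7.81% and 13.6%, in that order. Foxp3 start A held a TATAAA match whose first base was at -32 from the start. Foxp3 start B held an NFAT match on the minus strand at -141 that overlapped a STAT match at -139, and Ctla4 held an NFAT match on the minus strand at -145 and a TATAAA at 40 bases past the start. The Il2ra window held none of the 6 motifs, which says only that these letters are not in this window. Among the other windows, that of Cd3d held a STAT match at -197, and those of Cd3e, Cd3g and Cd8a held none.

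The level of each gene was next set against Cd3e in the same library, which gives its level relative to a chain of the T cell receptor. Tumour macrophages also carried Cd4 and Il2ra, at means of 37.2 and 3.95 FPKM, and their part in these ratios was not tested. Relative to Cd3e, 4 of the other 9 genes did not overlap between the groups: Foxp3, Ctla4, Icos and Il2ra. Over all genes with a value in every library, 44.1% did not overlap in the same measure, so the share is close to the background. With 3 libraries against 3, a two-sided exact permutation test cannot give a p below 0.1, and none is given. Foxp3 was at 16.3%, 15.1% and 9.83% of the Cd3e FPKM in tumour libraries, against 4.16%, 5.53% and 5.37% in WT libraries. Its mean log2 ratio was -2.90 ± 0.39 in tumour and -4.33 ± 0.23 in WT libraries (SD, n = 3 each), a difference of 1.43. Ctla4 was at 108%, 145% and 148% of Cd3e in tumour libraries, against 71.0%, 78.8% and 49.7% in WT libraries, so it stood above Cd3e in all tumour libraries and below it in all WT libraries. Il2ra had the narrowest groups, at 15.9%, 14.2% and 14.9% of Cd3e in tumour libraries, against 8.80%, 8.93% and 10.4% in WT libraries. Icos was at 35.9%, 39.3% and 98.5% in tumour libraries and at 28.6%, 34.3% and 32.9% in WT libraries, and with Cd3g in place of Cd3e its groups overlapped. Foxp3 relative to Cd4 was 0.223, 0.214 and 0.0859 in tumour libraries, against 0.0730, 0.0856 and 0.0690 in WT libraries. The groups did not overlap there, but tumour replicate 14 was at the edge of the WT range.

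**Figure D2:**
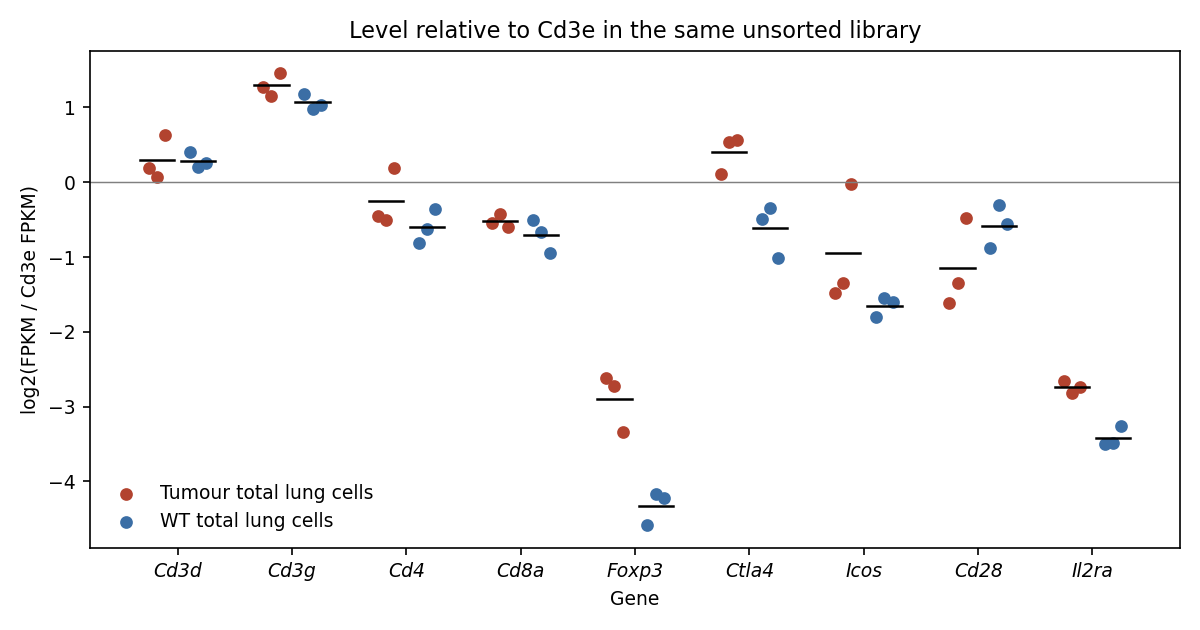
log2 of each gene's FPKM over the Cd3e FPKM of the same total lung library. Points are libraries (tumour red, left; WT blue, right), black lines are group means, and 0 is the level of Cd3e. Foxp3 averaged -2.90 in tumour and -4.33 in WT libraries, and Cd3d, Cd3g, Cd4, Cd8a and Cd28 overlapped between the groups.

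A list of 28 genes of T cell identity and receptor signalling was set beside the members. This list and those below were chosen with earlier results of these data known, so their counts are a description only. Of these, 14 fell and 1 rose in tumour total lung cells, where 20.4% of all genes tested were called lower and 22.1% higher. The median log2 change of the list was -0.43, against -0.01 over all genes tested. The largest falls were in S1pr1, Ccr7 and Lef1. S1pr1, the receptor by which lymphocytes leave lymphoid tissue, was at 34.8, 26.8 and 56.8 FPKM in tumour and at 102, 108 and 156 FPKM in WT libraries (log2 change -1.65, SE 0.28, adjusted p = 0.00313). Ccr7, the chemokine receptor for entry to lymph nodes, fell by 1.24 on the log2 scale, to 149, 91.5 and 199 FPKM in tumour against 325, 248 and 451 FPKM in WT libraries (adjusted p = 0.0157). Lef1, a transcription factor of naive T cells, fell by 0.97 (adjusted p = 0.0114). For each of these the groups did not overlap, and tumour replicate 14 was the highest of the tumour libraries. The gene that rose was Lcp2, an adaptor of T cell receptor signalling, at 62.7, 75.4 and 93.6 FPKM in tumour against 32.3, 35.3 and 33.4 FPKM in WT libraries. Lcp2 averaged 157 FPKM in tumour neutrophils, and Ccr7 238 FPKM in tumour macrophages, so sorted myeloid cells carried both. Naive B cells also carry Ccr7 and S1pr1, and all 12 B cell markers fell. S1pr1 averaged 60.7 FPKM in WT and 15.8 FPKM in tumour monocytes (n = 2 each). The endothelial marker Cdh5 averaged 103 and 25.3 FPKM in the same libraries. All 10 endothelial markers fell in total lung cells. The part of B cells and of endothelial cells in the list was not tested. A pair of genes whose products join those of the 10 genes, chosen after their values were seen, are on the list: Cd247, the CD3 zeta chain, fell by 0.55 (adjusted p = 0.00691) and Cd8b1, the CD8 beta chain, fell by 0.70 (adjusted p = 0.0106), while Cd3d, Cd3e, Cd3g and Cd8a did not pass. T cells carry both proteins, and NK cells also carry the CD3 zeta chain. All 6 NK cell markers fell as well, and the part of NK cells in these values was not tested.

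Of 20 genes associated with regulatory T cells, 19 were tested, and 11 rose and 5 fell, with a median log2 change of 0.60. Over all genes tested, 22.1% were called higher and 20.4% lower, but this list too was chosen with earlier results of these data known. Tnfrsf4, which encodes the costimulatory receptor OX40, was at 20.8, 31.0 and 15.8 FPKM in tumour and at 4.90, 6.68 and 5.23 FPKM in WT libraries (log2 change 1.79, SE 0.23, adjusted p = 0.00112). Tnfrsf9, which encodes 4-1BB, rose by 1.38, to 17.5, 10.9 and 12.1 FPKM in tumour against 4.24, 4.76 and 4.43 FPKM in WT libraries. In both, every tumour library exceeded every WT library, but they were named because they passed and changed most. Nt5e, an ectoenzyme that makes adenosine, rose by 2.04 (adjusted p = 0.000325), and Il10, a suppressive cytokine, by 1.52 (adjusted p = 0.00218). These levels are not confined to T cells, because 11 of the 20 genes averaged higher in at least 1 sorted tumour population than in tumour total lung cells. Nt5e averaged 41.1 ± 5.44 FPKM in tumour neutrophils and Il10 10.8 ± 8.22 FPKM in tumour monocytes (SD, n = 3 and 2), against 32.6 and 8.24 FPKM in tumour total lung cells. Tnfrsf4 and Tnfrsf9 were highest among sorted tumour cells in macrophages, at 5.31 ± 3.004 and 9.32 ± 3.46 FPKM (SD, n = 3), below their total lung means of 22.5 and 13.5 FPKM. Some genes of this list that encode surface proteins went down in total lung cells. Lrrc32, which encodes the latent TGF-beta receptor GARP, was at 5.22, 5.26 and 2.87 FPKM in tumour and at 9.81, 13.7 and 15.5 FPKM in WT libraries (log2 change -1.37), and Nrp1 fell by 0.99. Both were picked out after their values were seen. Both are also genes of endothelial cells, whose 10 markers all fell in tumour total lung cells. Lrrc32 averaged 6.70 ± 0.733 FPKM in tumour macrophages and Nrp1 33.5 ± 18.6 FPKM in tumour epithelial cells (SD, n = 3 each). The part of these cells in the 2 falls was not tested.

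Among 10 inhibitory receptors and exhaustion genes, 4 rose and 2 fell, where 22.1% of all genes tested were called higher and 20.4% lower. Pdcd1, which encodes the checkpoint receptor PD-1, was at 12.96, 32.0 and 12.1 FPKM in tumour and at 1.74, 2.58 and 1.35 FPKM in WT libraries. Every tumour library was well above the WT libraries, with a log2 change of 2.68 (SE 0.35, adjusted p = 0.00116). In no sorted tumour population did Pdcd1 average above 0.848 FPKM. Tigit rose by 1.39, to 19.4, 47.6 and 26.7 FPKM in tumour against 10.3, 12.7 and 8.82 FPKM in WT libraries (adjusted p = 0.00835), and averaged at most 4.68 FPKM in a sorted tumour population. Havcr2, which encodes TIM-3, rose by 2.10 (adjusted p = 0.000198), but averaged 51.9 ± 2.36 FPKM in tumour macrophages (SD, n = 3), above its total lung mean of 29.7 FPKM. Btla, an inhibitory receptor of T and B cells, fell by 1.30, to 30.4, 28.2 and 33.4 FPKM in tumour against 91.5, 58.9 and 83.2 FPKM in WT libraries (adjusted p = 0.00113). The 4 genes named here had groups that did not overlap, but they were named because they passed and changed most.

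Of 10 tested genes on a list of helper T cell regulators and cytokines, 0 rose and 3 fell, with a median log2 change of -0.16, where 20.4% of all genes tested were called lower. Il4, a cytokine of type 2 helper cells, was at 2.32, 2.13 and 1.85 FPKM in tumour and at 6.34, 7.16 and 6.999 FPKM in WT libraries (log2 change -1.34, SE 0.12, adjusted p = 0.000290). Sorted monocytes averaged 7.02 ± 6.52 FPKM of Il4 in WT and 1.44 ± 2.04 FPKM in tumour lung (SD, n = 2 each). Their part in the Il4 values was not tested. Ifng, the cytokine of type 1 helper, cytotoxic and NK cells, fell by 0.90, to 43.0, 58.5 and 37.9 FPKM in tumour against 87.6, 102 and 71.7 FPKM in WT libraries (adjusted p = 0.00771), and Tbx21, which encodes their factor T-bet, fell by 0.45 (adjusted p = 0.0258). The fit of all 10 groups did not call Ifng (adjusted p = 0.179) or Tbx21 (adjusted p = 0.188), and Tbx21 was also lost without each library except tumour replicate 14 (adjusted p from 0.0510 to 0.0931). NK cells are a source of both, and the 6 NK cell markers fell as well. The part of NK cells in the Ifng and Tbx21 values was not tested. Sorted tumour monocytes averaged 52.0 ± 41.0 FPKM of Ifng and 12.3 ± 8.68 FPKM of Tbx21 (SD, n = 2). Tumour total lung cells averaged 46.5 and 8.46 FPKM. The NK cell marker Gzma averaged 406 ± 260 FPKM in the tumour monocytes (SD, n = 2). The ligands of the costimulatory receptors were split. Cd80, a ligand of CD28 and CTLA4, rose by 2.74, to 44.9, 63.9 and 76.9 FPKM in tumour against 7.30, 11.6 and 6.50 FPKM in WT libraries (adjusted p = 0.000312), and Cd86, which binds the same receptors, rose by 0.94 (adjusted p = 0.00206). Icosl, the ligand of ICOS, fell by 0.55 (adjusted p = 0.00857), a call the fit of all 10 groups did not make (adjusted p = 0.0511). Cd80 averaged 239 ± 36.3 FPKM in tumour neutrophils and Cd86 46.3 ± 10.3 FPKM in tumour macrophages (SD, n = 3 each).

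**Figure D3:**
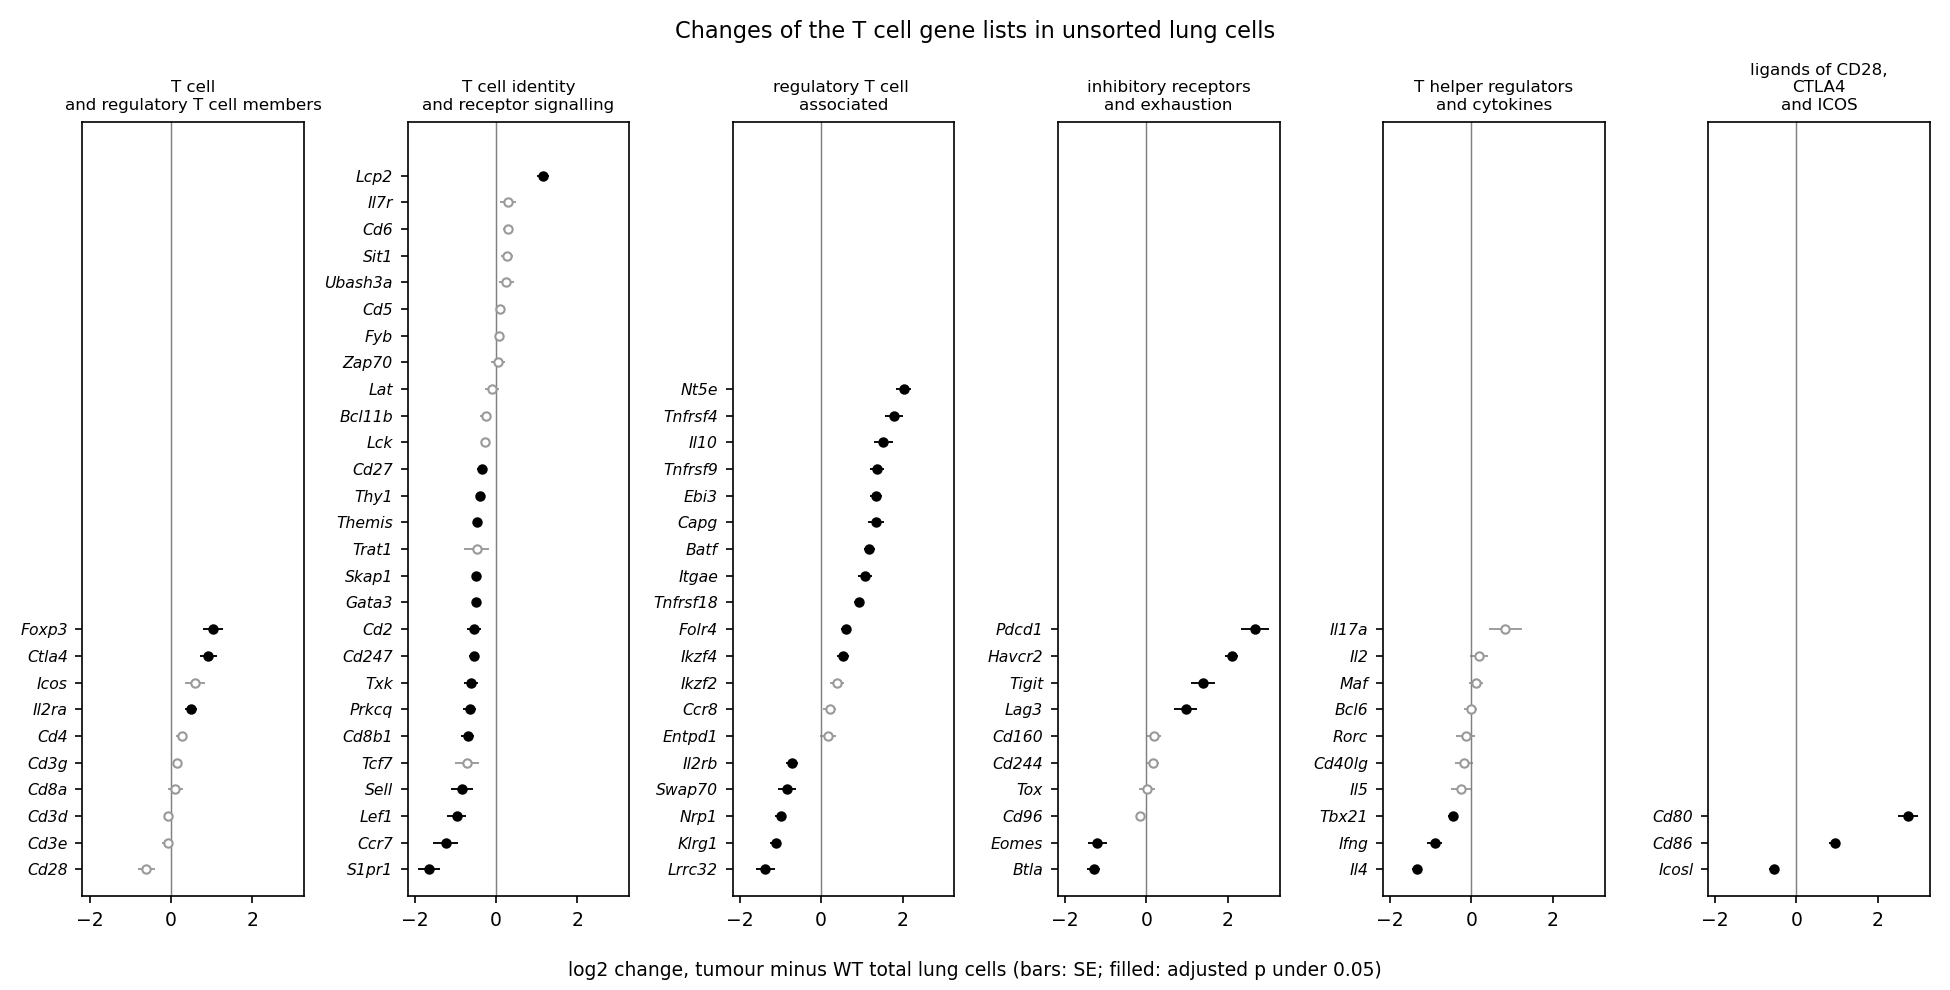
log2 change on the log2(FPKM + 1) scale, tumour minus WT total lung cells, for the 10 genes and for genes of the 5 lists set beside them. Bars are standard errors, and filled points passed at an adjusted p under 0.05 (limma). Among T cell identity genes 14 of the filled points lie left of 0 and 1 right of it, while among genes associated with regulatory T cells 11 lie right and 5 left. Of all genes tested, 22.1% were called higher and 20.4% lower. The genes and lists were chosen with earlier results of these data known.

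Across the 10 groups, total lung cells held the highest levels of nearly all of the 10 genes. In WT lung, every total lung library lay above every sorted library for all 10. In tumour lung this held for all but Cd4 and Il2ra, for which macrophages reached the total lung range. Compared with epithelial cells of the same lung, all 10 genes were higher in total lung cells in tumour, where 52.9% of all genes tested were called in either direction, and all 10 were higher in WT, where 63.7% were called. On the log2(FPKM + 1) scale Foxp3 had the smallest of these differences, at 1.78 in tumour lung and 1.13 in WT lung. The added 1 FPKM understates differences of low genes, so this rank need not hold for the FPKM themselves. Foxp3 and Il2ra did not pass the filter of 1 FPKM in 2 libraries in epithelial cells. They entered these fits through total lung libraries, so nothing is drawn from their calls about epithelial cells.

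**Figure D4:**
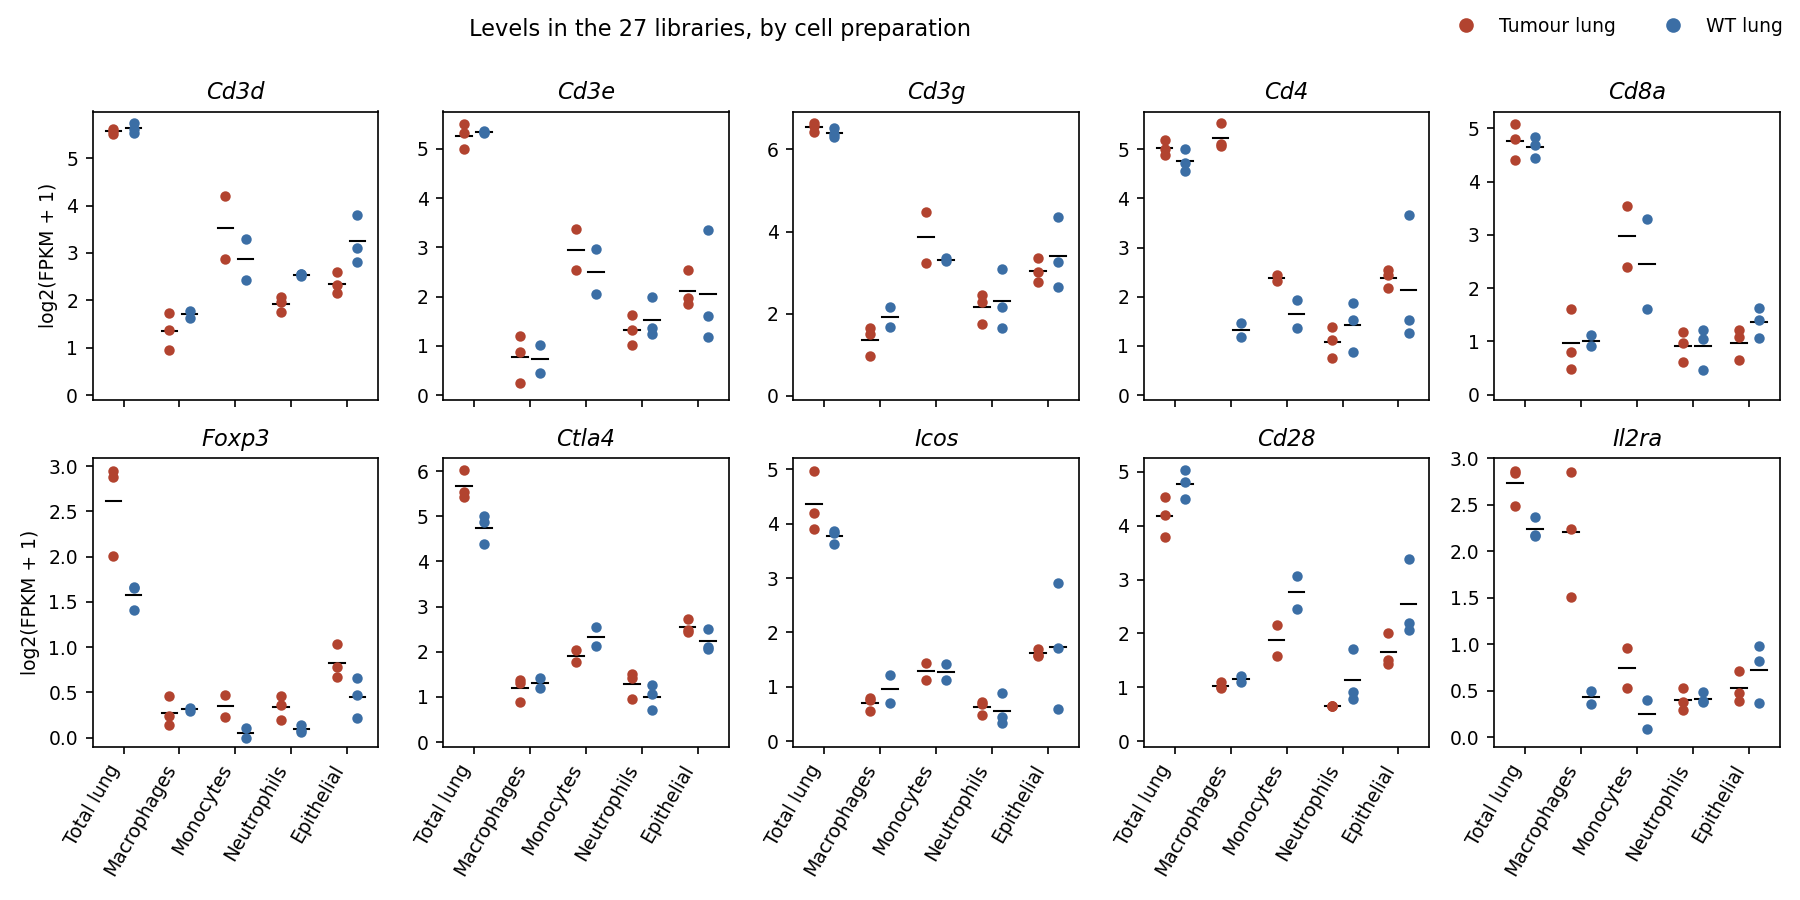
log2(FPKM + 1) of the 10 genes in all 27 libraries, by cell preparation. Red points are tumour libraries (left in each pair), blue points WT libraries, black lines group means, and each gene has its own vertical axis. Total lung cells were highest for most genes, tumour macrophages stand out for Cd4 and Il2ra, and a WT epithelial library and a tumour monocyte library stand above their partners for several genes.

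The order of the group means of Cd3e was WT total lung, tumour total lung, tumour and WT monocytes, WT and tumour epithelial cells, WT and tumour neutrophils, and tumour and WT macrophages. Means were 38.0 ± 6.74 FPKM in tumour and 39.6 ± 0.317 FPKM in WT total lung cells (SD, n = 3 each), whose libraries overlapped. Cd3e was at 4.81 and 9.31 FPKM in the tumour monocyte libraries and at 3.12 and 6.80 FPKM in the WT ones. In sorted macrophages it was at 0.186 to 1.31 FPKM in tumour and at 0.356 and 1.04 FPKM in WT libraries. The CD3 chains thus did not fall to 0 in the sorted cells, and libraries of a group differed. WT epithelial replicate 9 had 9.28 FPKM of Cd3e, against 2.06 and 1.27 FPKM in the other WT epithelial libraries. The same library had 11.6 FPKM of Cd4, 6.49 FPKM of Icos and 9.36 FPKM of Cd28, in each case the highest of the WT sorted libraries. Among tumour sorted libraries, monocyte replicate 4 was highest for Cd3d (17.4 FPKM), Cd3e, Cd3g (21.2 FPKM), Cd8a (10.7 FPKM) and Cd28 (3.48 FPKM).

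Foxp3 was near the bottom of the scale in every sorted population. Its mean was 5.35 ± 2.02 FPKM in tumour and 1.99 ± 0.296 FPKM in WT total lung cells (SD, n = 3 each). In tumour epithelial cells, the highest of the sorted groups, it was at 0.786 ± 0.235 FPKM, against 0.375 ± 0.211 FPKM in WT epithelial cells (SD, n = 3 each), and these overlapped no total lung library. In sorted macrophages, monocytes and neutrophils it did not exceed 0.384 FPKM, and in a WT monocyte library it was listed at 0. Foxp3 did not pass the filter of 1 FPKM in 2 libraries in any sorted population and was tested in total lung cells only.

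In macrophages, Cd4 and Il2ra passed as higher in tumour. Cd4 was at 45.2, 33.7 and 32.6 FPKM in tumour replicates 1, 2 and 3, and at 1.76 and 1.27 FPKM in WT replicates 1 and 2. The tumour macrophages lay within or above the range of total lung cells, and the WT macrophages were more than an order of magnitude lower. The log2 change was 3.92 (SE 0.18, adjusted p = 1.73e-05). Il2ra was at 3.74, 6.25 and 1.85 FPKM in tumour macrophages and at 0.287 and 0.410 FPKM in WT macrophages (log2 change 1.78, SE 0.36, adjusted p = 0.00963). It entered the test through its tumour libraries alone, and the call was lost without WT replicate 1 (adjusted p = 0.0697) or 2 (adjusted p = 0.0562), which leaves a lone WT library that is assumed to vary like the others. None of the CD3 chains passed, and Cd3d, Cd3e and Cd3g were each at most 2.33 FPKM in tumour and at most 3.48 FPKM in WT macrophages. Of the 28 genes of T cell identity and receptor signalling, 21 were tested in macrophages, and 4 rose and 5 fell. The summed FPKM of 7 dendritic cell markers was 215 to 1069 in tumour macrophages and 125 to 137 in WT macrophages, but single markers went both ways, with 2 called higher and 2 lower and a median log2 change of 0.11. Ccl22 averaged 360 ± 258 FPKM in tumour and 51.3 ± 0.439 FPKM in WT macrophages (SD, n = 3 and 2), while Clec9a averaged 2.12 ± 0.393 and 12.8 ± 2.70 FPKM and Xcr1 0.577 ± 0.109 and 4.96 ± 1.82 FPKM. The summed FPKM of 8 ILC2 markers was 102 to 196 in tumour and 18.1 to 62.8 in WT macrophages, of which Arg1 made up 81.3 to 169 and 0.182 to 44.4 FPKM, and of 4 tested 1 rose and 0 fell. Their part in the Cd4 and Il2ra values was not tested, and the tumour and the difference in gate cannot be told apart. Of the 10 genes, 8 were tested in macrophages and 2 passed, both higher, where 37.9% of all genes tested were called.

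In the other sorted populations few changes passed. In neutrophils 6 of the 10 genes were tested, and Cd3d passed as lower, where 59.1% of all genes tested were called. Cd3d was at 2.38 to 3.22 FPKM in tumour neutrophils and at 4.68 to 4.87 FPKM in WT neutrophils (log2 change -0.61, SE 0.13, adjusted p = 0.00322), and the call was not made when all 10 groups were fitted together (adjusted p = 0.0674). The B cell marker sum of the same libraries was 15.9 to 86.4 in tumour and 234 to 333 in WT, and its part in the Cd3d value was not tested. Without WT neutrophil replicate 6, Cd4 passed as lower too (adjusted p = 0.0375). In epithelial cells 8 genes were tested and 0 passed, where 23.8% of all genes tested were called. At an unadjusted p under 0.05 there were 2, Cd3d and Cd28, and the fit of all 10 groups called the same genes (adjusted p = 0.0127 and 0.0174). Without WT epithelial replicate 9, Cd4 passed as higher (adjusted p = 0.0399). Cd3d was at 3.43 to 5.01 FPKM in tumour and at 6.04 to 12.9 FPKM in WT epithelial cells, which did not overlap (log2 change -0.89, SE 0.28, adjusted p = 0.0547). In monocytes 8 genes were tested and 0 passed, and 0.0% of the 10366 genes tested were called by limma, although 1559 had an unadjusted p under 0.05. Cd4 and Cd28 were at an unadjusted p under 0.05 in monocytes. Cd4 read 3.99 and 4.40 FPKM in tumour monocytes against 1.59 and 2.79 FPKM in WT, and Cd28 read 1.98 and 3.48 FPKM in tumour monocytes against 4.51 and 7.39 FPKM in WT.

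Whether the tumour effect in total lung cells differed from that in a sorted population was tested by the interaction term of limma. Against macrophages, 4 of the 10 genes differed, where 40.6% of all genes tested did. The effect in total lung cells was smaller for Cd4 (difference -3.65, SE 0.23, adjusted p = 2.56e-06) and Il2ra (-1.28, adjusted p = 0.0266), and larger for Ctla4 (1.03, adjusted p = 0.0210). Without WT macrophage replicate 2, which leaves a lone WT macrophage library, the difference was 0.92 for Ctla4 and -1.34 for Il2ra, and neither kept its call. Without tumour macrophage replicate 1 the count of genes that differed was 2, Cd4 and Ctla4. Il2ra also lost its call without WT macrophage replicate 1, tumour total lung replicate 14 or WT total lung replicate 13 (adjusted p from 0.0538 to 0.0868). The fourth was Foxp3 (1.07, adjusted p = 0.0249). It did not pass the filter in macrophages and entered this fit through total lung libraries, so nothing is drawn from its value about macrophages. Against neutrophils, 3 differed, where 41.9% of all genes tested did. Cd3d, which was tested in neutrophils, differed by 0.54 (adjusted p = 0.0102), and did not pass with a pseudocount of 5 (adjusted p = 0.0541). The other 2, Il2ra (0.52, adjusted p = 0.0376) and Foxp3 (0.79, adjusted p = 0.0444), read under 0.5 FPKM in every neutrophil library and entered through total lung libraries alone, so nothing is drawn from them about neutrophils. The count fell to 1 without any of 8 libraries: tumour neutrophil replicate 7 or 8, WT neutrophil replicate 5 or 7, tumour total lung replicate 12 or 13, and WT total lung replicate 11 or 12. Against monocytes 0 of the 10 genes differed, where 3.88% of all genes tested did, and without tumour monocyte replicate 5 Cd3g did (adjusted p = 0.0414). Against epithelial cells 0 differed, where 10.7% did, and without WT epithelial replicate 8 Cd3d did (adjusted p = 0.0443).

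The genes whose levels followed Cd3e and Foxp3 most closely were ranked by Pearson's r of log2(FPKM + 1) over all 27 libraries, among 12642 genes. The libraries share their preparations, and most of the spread lies between total lung and sorted cells, so r describes likeness and carries no test. Outside the 10 genes, those most like Cd3e included Ubash3a (r = 0.974), Cd5 (0.973), Cd96 (0.970) and Nsg2 (0.961). Ubash3a, Cd5 and Cd96 are T cell genes that were on the lists, and none of them passed in total lung cells. Among the 10 genes themselves, Cd3g (0.979) and Cd3d (0.968) were most like Cd3e, and Cd4 (0.574) and Il2ra (0.613) least. Those most like Foxp3 were Tnfsf11 (r = 0.965), Ccr4 (0.953), Podnl1 (0.927), Pdcd1 (0.925) and Ptpn5 (0.925). Tnfsf11, the cytokine RANKL, averaged 3.74 FPKM in tumour and 1.92 FPKM in WT total lung cells, and Ccr4, a chemokine receptor of regulatory and type 2 helper T cells, 1.89 and 1.06 FPKM. Ctla4 was the one of the 10 genes most like Foxp3 (0.930).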

How the data were processed

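RNA from 27 libraries of sorted or unsorted mouse lung cells was sequenced after TruSeq preparation. Per the submitters' processing notes, the authors used CASAVA 1.8.2, TopHat2, Cufflinks and Cuffdiff with mm10 (GRCm38), and the deposited values are FPKM. How the libraries were scaled is not given in the sources used here. Each of the table's value columns was matched to a library by title. Read counts were not analysed, so no counting interval is given, and relative depth was read from the spacing of values under 0.2 FPKM.

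FPKM were used as deposited, with 1 added before log2. Genes at 1 FPKM or more in at least 2 libraries compared were tested with limma 3.58.1 in R 4.3.3 (2 groups fitted alone, moderated variances with an intensity trend). Benjamini-Hochberg adjustment ran over all genes tested, with a threshold of 0.05. Interactions used the 4 groups concerned. Alternatives changed the pseudocount, the filter, the scaling, the libraries fitted, the moderation or the replicate block, or left out a library. The scripts were tested on simulated data. The 10 members, 5 gene lists and 11 marker lists were chosen with earlier results of these data known. From each gene list, up to 4 genes that passed were named, those that changed most, and the 5 genes most like Cd3e and Foxp3. A gene of this kind is counted but not reported here by name. Positions came from GENCODE M21, promoters from RefSeq, and figures were drawn with matplotlib in Python 3.11.15.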

Additional observations from a re-analysis of the deposited data

Results flagged for a closer look

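The tumour effect of several genes differed between total lung cells and a sorted population, by the interaction term of limma on log2(FPKM + 1) with Benjamini-Hochberg adjustment over all genes. Against macrophages the difference, total lung minus macrophages, was -3.65 for Cd4 (adjusted p = 2.56e-06), -1.28 for Il2ra (adjusted p = 0.0266), 1.07 for Foxp3 (adjusted p = 0.0249) and 1.03 for Ctla4 (adjusted p = 0.0210). For Cd4, tumour macrophages averaged 37.2 FPKM and WT macrophages 1.51 FPKM, while total lung cells averaged 31.6 FPKM in tumour and 26.4 FPKM in WT. Against neutrophils the difference was 0.54 for Cd3d (adjusted p = 0.0102), 0.79 for Foxp3 (adjusted p = 0.0444) and 0.52 for Il2ra (adjusted p = 0.0376). Foxp3 and Il2ra read under 0.5 FPKM in all neutrophil libraries, and Foxp3 under 0.5 FPKM in all macrophage libraries. In those sorted cells they did not pass the filter of 1 FPKM in 2 libraries and entered these fits through total lung libraries, so nothing is drawn from these values about the sorted cells.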

How the results depend on the processing

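The count of 3 members called in total lung cells was between 2 and 4 without single libraries and 2 to 4 under the other settings. Cd28 passed as lower with upper-quartile scaling (adjusted p = 0.0388) and quantile normalization (0.0408). In macrophages the 2 calls became 1 with a filter of 5 FPKM and ranged from 1 to 2 without single libraries. In neutrophils the single call became 2 with no filter, 0 with a filter of 5 FPKM, 0 in the fit of all 10 groups, and 1 to 2 without single libraries. In epithelial cells 0 calls became 1 with quantile normalization, 2 in the fit of all 10 groups, and 0 to 1 without single libraries. Interaction calls ranged from 1 to 5 against macrophages, 0 to 1 against monocytes, 1 to 3 against neutrophils and 0 to 1 against epithelial cells without single libraries, and against neutrophils they were 1 with a pseudocount of 0.1 and 1 with upper-quartile scaling. Changes that had not passed turned sign for Cd3e without tumour replicate 14 (-0.187 to 0.0659 over the libraries left out), for Cd3g with quantile normalization (-0.116) and for Cd8a without tumour replicate 13 or WT replicate 13 (-0.0555 to 0.282 over the libraries left out).

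Replicate numbers shared by tumour and WT libraries did not pair them: deviations from the group means correlated at 0.0040 and -0.022 in total lung cells. With a replicate block, 2423 genes were called in total lung cells in place of 4993, and 0 members in neutrophils, where Cd3d had an adjusted p of 0.0755. In total lung cells the replicate block called Foxp3 and Cd28 (adjusted p = 0.0335), and neither Ctla4 (0.0661) nor Il2ra (0.0760), and the log2 change of Cd3e was 0.0658. Among the listed genes named, it did not call Tigit (adjusted p = 0.0614), Tbx21 (0.0728), Ifng (0.0928) or Icosl (0.127). It fits only the numbers that both groups share. No paired analysis was possible in monocytes because the groups share a single number. The cause of these changes was not tested. The depth behind a value is unknown in reads, which limits what can be said of genes under 1 FPKM, Foxp3 in sorted cells among them.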
